A study of Mus musculus with 6 samples.

Results

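The insulin-like growth factor (IGF) system was followed through 10 genes: the ligands Igf1 and Igf2, the receptors Igf1r and Igf2r, and the binding proteins Igfbp2, Igfbp3, Igfbp4, Igfbp5, Igfbp6 and Igfbp7. They were chosen by name, as those whose symbol belongs to a probe's RefSeq accession, and not by their values. The 10 genes had 14 of the 55681 probes on the array, and they are 10 of 37153 genes and unnamed features. All 10 were tested, because the probe that stood for each gene was well above background on all 6 arrays. Mouse cells of 3 kinds were measured on 2 arrays each. Mstn-null MDSC were muscle-derived stem cells from male mice aged 5 weeks and with a null label for Mstn, which encodes myostatin, a secreted brake on the growth of muscle; the allele is not given. WT MDSC came from wild-type male mice of the same age. Both were the cells of whole hindlimb muscle that adhered last in a series of platings, grown to passage 1, and each of their arrays held a separate isolation. W4 ESC were an established male mouse embryonic stem cell line, and its arrays were passages 12 and 15 of the 1 line, so their spread is that within a line. No culture was treated.

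IGF ligands are small secreted proteins related to insulin. Igf1r, a receptor tyrosine kinase, passes their signal on through the PI3K and MAPK pathways, Igf2r takes Igf2 up for breakdown, and the binding proteins hold the ligands outside the cell, where they can block or prolong their action. In skeletal muscle, Igf1 and Igf2 are known to promote the growth of myoblasts and their differentiation.

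A level is the log2 signal minus that of the array's 75th percentile, so a level of 0 is that percentile. Of the 59305 non-control spots on an array, 53.3% to 64.6% stood well above background and 0 were saturated, and the number of arrays limits the precision. Both WT arrays were on 1 slide and the other 4 arrays on a second, so slide and WT genotype cannot be told apart. Among 8 pluripotency markers, the ESC arrays had all 8 well above background, with means of 4.93 and 5.13, and the MDSC arrays had 4 or 5, with means of -4.16 to -3.76. Pou5f1, Zfp42 and Fgf4 were not well above background on any MDSC array. At a limma adjusted p under 0.05, 7 of the 8 were lower in MDSC than in ESC and 1 was higher, against 31.4% and 28.3% of all genes tested. Of 9 myogenic progenitor markers, 7 or 8 were well above background on the MDSC arrays, and 6 and 5 on the ESC arrays. Myf5 was so on no array, and Pax7 on WT 1 and ESC 1 alone. Myod1 and Myog were so on every MDSC array and on neither ESC array. All 10 fibroblast and feeder markers were well above background on every MDSC array, and 10 and 9 of them on the ESC arrays. For Mstn itself, probe A_51_P384901 read -3.06 and -2.47 in Mstn-null MDSC, both well above background, against -4.90 and -6.71 in WT MDSC, neither of them so. It was thus at least 4.07-fold higher in the cells labelled null, a difference that did not pass (limma adjusted p = 0.135). Whether the probe lies outside a deleted stretch is not given, so it does not check the genotype label.

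The windows before the RefSeq starts of 5 members are shown first, those of the 4 genes with the largest rise in MDSC and of the 1 gene that fell. Each is the 250 bases before the start on the gene's own strand, 5' to 3', from RefSeq on build GRCm38.p6: chr10:87860861-87861110 (plus strand) for Igf1, chr11:99040994-99041243 (plus) for Igfbp4, chr15:102143936-102144185 (plus) for Igfbp6, chr5:77408046-77408295 (minus) for Igfbp7, and chr1:72824230-72824479 (plus) for the first of 2 starts of Igfbp2. Capitals mark matches, on either strand, to the TATA box TATAAA, the GC box GGGCGG, the CCAAT box, the E-box CAGCTG and the AP-1 site TGANTCA, and none of the matches shown overlap.
Igf1: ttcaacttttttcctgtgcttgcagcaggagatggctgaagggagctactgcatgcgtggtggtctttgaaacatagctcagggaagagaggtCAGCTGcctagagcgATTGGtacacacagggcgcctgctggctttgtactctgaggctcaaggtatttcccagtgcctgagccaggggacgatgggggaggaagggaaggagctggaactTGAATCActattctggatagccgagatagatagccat
Igfbp4: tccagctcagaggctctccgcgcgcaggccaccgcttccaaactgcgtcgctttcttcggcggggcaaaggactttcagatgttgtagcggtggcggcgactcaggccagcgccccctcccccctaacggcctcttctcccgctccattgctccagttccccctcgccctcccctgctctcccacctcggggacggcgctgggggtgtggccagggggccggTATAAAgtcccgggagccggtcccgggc
Igfbp6: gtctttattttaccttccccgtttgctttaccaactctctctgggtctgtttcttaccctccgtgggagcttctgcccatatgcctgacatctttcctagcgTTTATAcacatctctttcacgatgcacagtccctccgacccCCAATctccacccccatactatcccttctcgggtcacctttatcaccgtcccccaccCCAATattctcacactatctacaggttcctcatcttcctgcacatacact
Igfbp7: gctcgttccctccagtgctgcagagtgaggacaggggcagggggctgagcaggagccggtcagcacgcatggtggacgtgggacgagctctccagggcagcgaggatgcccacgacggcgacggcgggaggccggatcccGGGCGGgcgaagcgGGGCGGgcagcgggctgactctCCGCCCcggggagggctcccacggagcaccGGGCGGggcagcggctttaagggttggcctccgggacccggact
Igfbp2: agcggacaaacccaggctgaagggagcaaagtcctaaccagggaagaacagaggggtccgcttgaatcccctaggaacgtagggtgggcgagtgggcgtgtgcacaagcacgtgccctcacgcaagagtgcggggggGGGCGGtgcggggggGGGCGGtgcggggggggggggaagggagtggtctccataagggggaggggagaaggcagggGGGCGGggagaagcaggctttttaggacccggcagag
The Igf1 window held 1 CCAAT match, 1 E-box and 1 AP-1 match, and neither a TATA nor a GC box. Igfbp4 held a TATAAA that began 28 bases before the start and no other match. Igfbp6 held 2 CCAAT matches and a TATA match 148 bases before the start, on the opposite strand. Igfbp7 had 4 GC boxes and the first Igfbp2 window had 3. The window of the second Igfbp2 start, not shown, held 0 GC boxes and 1 AP-1 match. Of 32851 promoter windows of this length, 12.4% held TATAAA, 32.7% GGGCGG, 33.8% CCAAT, 13.0% CAGCTG and 6.75% TGANTCA. None of the 5 motifs was in all 4 windows of the genes that rose most.

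In muscle-derived cells, 6 of the 10 genes were higher than in ESC: the ligand Igf1, both receptors, and the binding proteins Igfbp4, Igfbp6 and Igfbp7. Igfbp2 was lower, and Igf2, Igfbp3 and Igfbp5 did not pass. The background was high, because 59.6% of the 25057 genes tested passed in this comparison, 28.3% higher and 31.4% lower. The median difference over the 10 genes was 1.82, against -0.03 over all genes tested. The arrays of the kinds did not overlap for 7 genes that were higher and 1 that was lower in MDSC, against 33.0% and 36.1% of all genes. The test was limma's, with p-values adjusted over all genes tested and a threshold of 0.05. Leaving out ESC 2 left 4 genes higher and 0 lower, and leaving out ESC 1 left 5 and 0. In these bulk cultures, fewer cells of a type and less RNA per cell cannot be told apart.

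**Figure D1:**
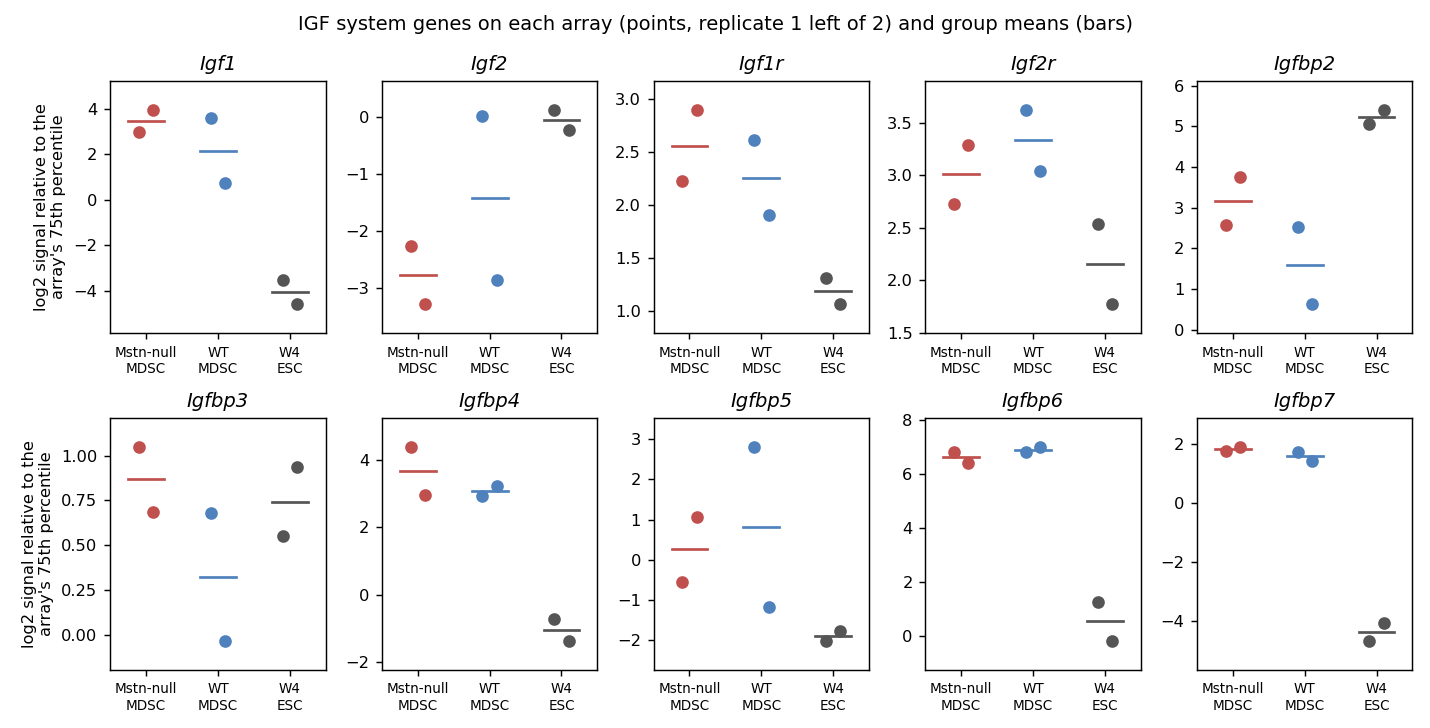
Log2 signal relative to the array's 75th percentile (vertical axis, its own range in each panel) of the 10 IGF genes in Mstn-null MDSC, WT MDSC and W4 ESC. Points are single arrays, replicate 1 left of 2, and bars are group means; Igf1, Igfbp4, Igfbp6 and Igfbp7 lie far above ESC on all 4 MDSC arrays, and WT 2 lies apart from WT 1 for Igf1, Igf2, Igfbp2 and Igfbp5.

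Of the ligands, Igf1, which growth hormone induces and which many tissues also make locally, had the largest fitted difference of the 10 genes over both genotypes, though that of Igfbp6 was larger in WT MDSC alone. Its brightest probe (A_55_P2031631) read 3.00 and 3.95 in Mstn-null MDSC, 3.60 and 0.73 in WT MDSC, and -3.52 and -4.58 in ESC. All 4 MDSC arrays were above both ESC arrays, and WT 2 was the lowest of the 4. Igf1 rose by 6.87 ± 0.89 (SE) in MDSC over ESC (adjusted p = 0.00284), with a 95% interval of 4.59 to 9.15. The rise was 6.15 without WT 1 (below that of Igfbp6, 6.26), 7.59 without WT 2, 6.11 as the mean over its probes and 5.36 with normexp background correction (Igfbp6 6.21 and 6.14). The gene passed in each of 18 alternatives. On ESC 2, 1 of the 2 spots of this probe was well above background.

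The other 3 Igf1 probes gave the same direction and different sizes. A_55_P2085984 read 2.87 and 3.76 in Mstn-null MDSC, 3.55 and 0.63 in WT MDSC, and -4.12 and -4.65 in ESC, a difference of 7.08 (adjusted p = 0.00231 over all probes, 58.9% of which passed). A_55_P2085974 gave 8.08 (adjusted p = 0.00331) and was not well above background on ESC 2. A_55_P2031636 read -1.18 and -0.29 in Mstn-null MDSC, -0.73 and -2.74 in WT MDSC, and -3.63 and -3.64 in ESC, a difference of only 2.40 (adjusted p = 0.0227). On every one of the 4 probes WT 2 was the lowest MDSC array, and Mstn-null 2 the highest. All 4 carry 1 transcript accession, and where they lie in it was not given.

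**Figure D2:**
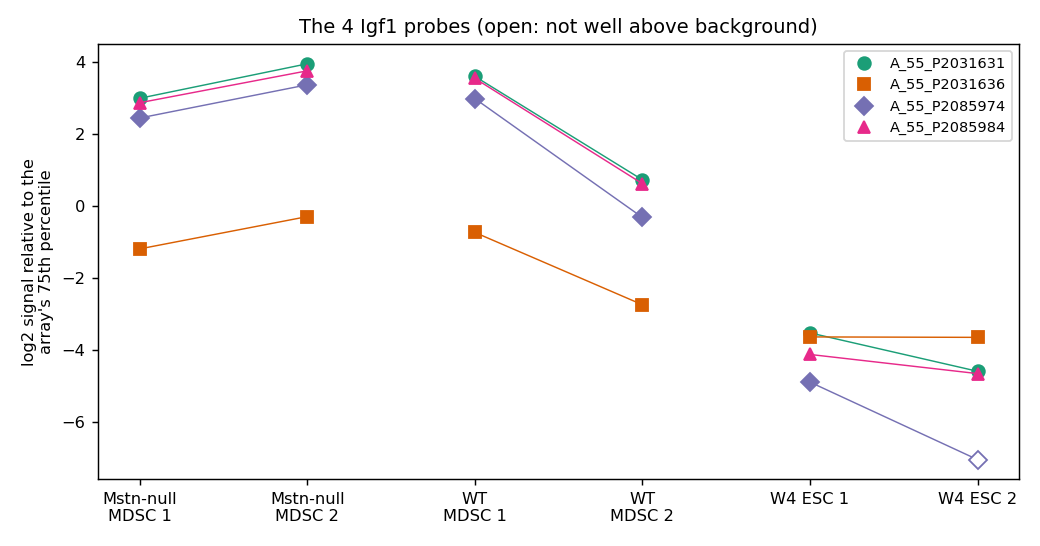
Log2 signal relative to the array's 75th percentile (vertical axis) of the 4 Igf1 probes on each of the 6 arrays (horizontal axis); lines join the arrays of a group, and an open marker is not well above background. WT MDSC 2 is the lowest MDSC array on each probe, and A_55_P2031636 spans the smallest range between MDSC and ESC.

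Igf2, the imprinted fetal growth factor that muscle cells also make as they differentiate, read -2.27 and -3.28 in Mstn-null MDSC, 0.01 and -2.86 in WT MDSC, and 0.11 and -0.23 in ESC. WT 1 lay between the ESC arrays, while the other 3 MDSC arrays were below both. The difference of MDSC from ESC was -2.04 ± 0.85, which did not pass (adjusted p = 0.0904), with an interval of -4.21 to 0.13. It passed in 3 of 15 alternatives, and in all 3 the gap between the WT arrays had left the estimate of the spread. The difference was -2.76 without WT 1 and -1.32 without WT 2. For Mstn-null MDSC against ESC within the slide they share, it was -2.72 (adjusted p = 0.00943). H19, the imprinted noncoding RNA gene beside Igf2, read 2.82 and 2.05 in Mstn-null MDSC, 5.84 and 2.66 in WT MDSC, and 5.26 and 2.14 in ESC. The first WT array and the first ESC array were thus high for H19, and MDSC and ESC did not differ beyond that spread (-0.36 ± 1.24, adjusted p = 0.816).

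Of the receptors, Igf1r, the signalling receptor of both ligands, read 2.22 and 2.89 in Mstn-null MDSC, 2.61 and 1.90 in WT MDSC, and 1.31 and 1.06 in ESC. All 4 MDSC arrays were above both ESC arrays, by a smaller margin than for Igf1. Igf1r rose by 1.22 ± 0.30 in MDSC (adjusted p = 0.0209, interval 0.44 to 2.00). It did not pass without ESC 1 (1.34, adjusted p = 0.0676) or without ESC 2 (1.1, adjusted p = 0.109). Igf2r, which is also the receptor that carries lysosomal enzymes with a mannose 6-phosphate tag, read 2.73 and 3.29 in Mstn-null MDSC, 3.62 and 3.05 in WT MDSC, and 2.53 and 1.77 in ESC. Its lowest MDSC array, Mstn-null 1, was just above ESC 1. Igf2r rose by 1.02 ± 0.33 (adjusted p = 0.0455, interval 0.18 to 1.86), close to the threshold, and it passed in 7 of 15 alternatives. Leaving out any array but ESC 1 ended the call, with differences of 1.16 without Mstn-null 1 (adjusted p = 0.0572), 0.88 without Mstn-null 2 (0.109), 0.88 without WT 1 (0.102), 1.16 without WT 2 (0.0504) and 0.64 without ESC 2 (0.218), all p-values adjusted. Its probe had 10 spots on each array, which differed by an SD of 0.03 to 0.06, so the spread between arrays was far above that between spots.

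Of the 6 binding proteins, 3 rose in MDSC, 1 fell and 2 did not pass, where 28.3% of all genes tested were called higher and 31.4% lower. The median difference over the 6 was 3.42.

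Igfbp6, which binds Igf2 in preference to Igf1, read 6.80 and 6.41 in Mstn-null MDSC, 6.79 and 7.0 in WT MDSC, and 1.27 and -0.19 in ESC. The 4 MDSC arrays lay within 0.59 of each other and far above both ESC arrays. Igfbp6 rose by 6.21 ± 0.43 (adjusted p = 5.85e-04, interval 5.10 to 7.33), with 6.94 without ESC 1 and 5.49 without ESC 2. Igfbp7, a matrix-associated protein that binds IGFs weakly, read 1.75 and 1.89 in Mstn-null MDSC, 1.72 and 1.41 in WT MDSC, and -4.66 and -4.07 in ESC. It had the narrowest spread among MDSC arrays of the 10 genes, 0.48. Igfbp7 rose by 6.06 ± 0.23 (adjusted p = 1.47e-04, interval 5.48 to 6.64), and with normexp background correction, which compresses low signals, by 4.28.

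Igfbp4, an inhibitor of IGF action that the protease Pappa cleaves, read 4.39 and 2.97 in Mstn-null MDSC, 2.92 and 3.23 in WT MDSC, and -0.72 and -1.36 in ESC. Mstn-null 1 was the highest array, and no MDSC array came near ESC. Igfbp4 rose by 4.41 ± 0.45 (adjusted p = 0.00152, interval 3.25 to 5.58). Igfbp4, Igfbp6 and Igfbp7 each passed in 15 of 15 alternatives. Igfbp5, a binding protein that also attaches to matrix and is known to rise as myoblasts differentiate, read -0.54 and 1.06 in Mstn-null MDSC, 2.81 and -1.18 in WT MDSC, and -2.01 and -1.78 in ESC. The MDSC arrays were all above ESC, but spread over 3.99 between the WT isolations alone. Its difference of 2.43 ± 1.18 did not pass (adjusted p = 0.133, interval -0.61 to 5.47). It passed in 2 of 15 alternatives, and in both the gap between the WT arrays had left the estimate of the spread. These were the fit without WT 2, at 3.43, and Mstn-null MDSC against ESC within the slide they share, at 2.15 (adjusted p = 0.0416). Without WT 1 the difference was 1.43.

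Igfbp2, a binding protein of fetal tissues, was the 1 member that fell in MDSC. Its brighter probe (A_66_P135391) read 2.58 and 3.75 in Mstn-null MDSC, 2.54 and 0.64 in WT MDSC, and 5.06 and 5.40 in ESC. Both ESC arrays were above all MDSC arrays, and WT 2 was the lowest. Igfbp2 fell by 2.85 ± 0.63 on the log2 scale (difference -2.85, adjusted p = 0.0145, interval -4.47 to -1.24), and its second probe (A_55_P2056729) gave -2.84 (adjusted p = 0.0132). The call was lost without ESC 1 (-3.02, adjusted p = 0.0627) or without ESC 2 (-2.69, adjusted p = 0.0854). Igfbp3, the main carrier of IGFs in blood, read 1.05 and 0.69 in Mstn-null MDSC, 0.68 and -0.03 in WT MDSC, and 0.55 and 0.93 in ESC. Its kinds overlapped, and the difference was -0.15 ± 0.27 (adjusted p = 0.662, interval -0.85 to 0.55), which turned to 0.02 with median centring. Igfbp2 and Igfbp5 are neighbours on chromosome 1, and their probes gave differences of opposite sign.

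**Figure D3:**
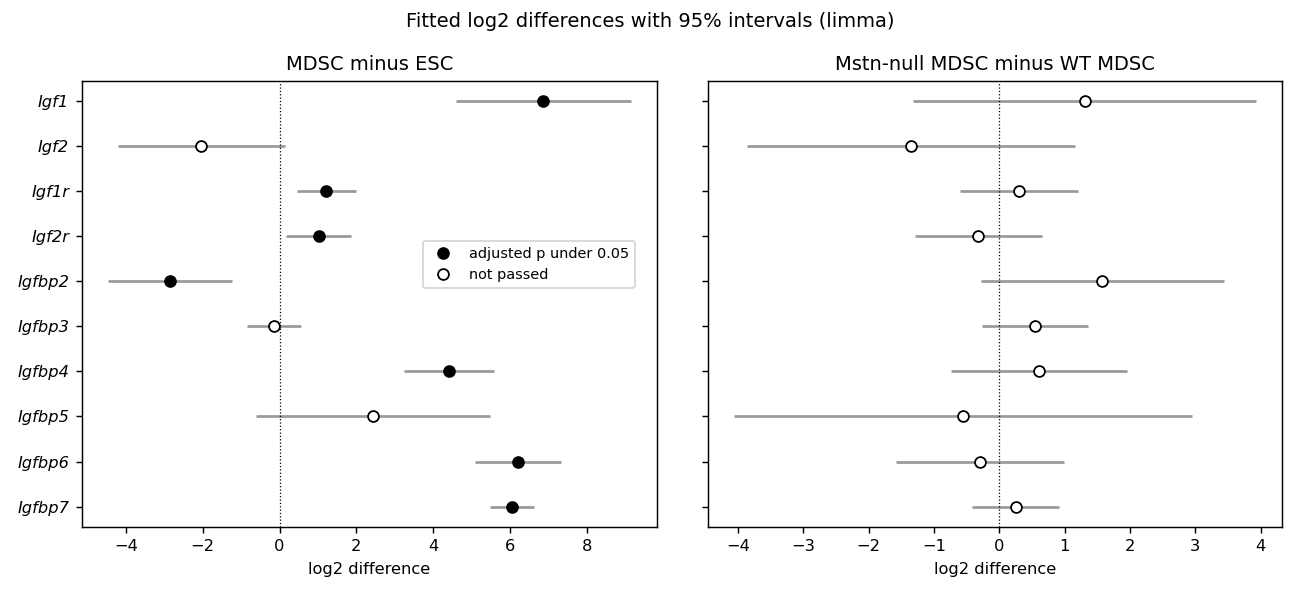
Fitted log2 differences (horizontal axis, a separate scale in each panel) of the 10 IGF genes, with limma's 95% intervals as lines; filled points passed at an adjusted p under 0.05. In MDSC minus ESC, 6 genes lie above 0 and pass and Igfbp2 lies below and passes, and in Mstn-null MDSC minus WT MDSC no gene passes and every interval includes 0.

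Each genotype was also set against ESC, in comparisons that share the ESC arrays with each other and with the one above. In Mstn-null MDSC, 5 genes rose against ESC and 0 fell, where 54.2% of all genes passed, 23.3% higher and 30.8% lower. In WT MDSC, 5 rose and 1 fell, where 53.1% passed, 27.1% higher and 25.9% lower. Igf1 rose by 7.52 in Mstn-null MDSC and 6.22 in WT MDSC, Igfbp4 by 4.72 and 4.11, Igfbp6 by 6.07 and 6.36, and Igfbp7 by 6.18 and 5.93, in the same order of genotypes. The 4 genes thus passed in both genotypes, with limma adjusted p of at most 0.00721. Igf1r rose by 1.37 in Mstn-null MDSC (adjusted p = 0.0249), and in WT MDSC its difference of 1.07 did not pass (0.0522). Igf2r gave 0.86 in Mstn-null MDSC (adjusted p = 0.112) and rose by 1.18 in WT MDSC (0.0496), a call that held in 6 of 15 alternatives. Igfbp2 gave -2.06 in Mstn-null MDSC (adjusted p = 0.0629) and fell by 3.64 in WT MDSC (0.0125). Fitted without the WT arrays, the same -2.06 passed, within the slide that Mstn-null MDSC and ESC share (adjusted p = 0.0241) and with only the groups compared (0.0252). Both fits use the same arrays and differ only in the set of genes fitted. The WT arrays then no longer enter the estimate of the spread. A gene past the threshold in 1 genotype alone is not thereby shown to differ between them, and the direct comparison follows.

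Between the genotypes, none of the 10 genes passed limma's adjusted threshold, and none had an unadjusted p under 0.05. The background was 0.0% as well: 0 of 25057 genes passed, with 3671 (14.7%) at an unadjusted p under 0.05, and quantile normalization called 10 genes higher and 12 lower. Igfbp2 had the largest difference, 1.58 ± 0.73 in Mstn-null over WT MDSC (adjusted p = 0.420, interval -0.29 to 3.44). Igf1 differed by 1.31 (-1.32 to 3.94) and Igf2 by -1.36 (-3.86 to 1.15). A difference of 2 in size, in the direction of the estimate, lies inside each of these 3 intervals. Igfbp5, at -0.55, had the widest interval, from -4.07 to 2.96. Igf1r differed by 0.30 (-0.59 to 1.20) and Igf2r by -0.32 (-1.30 to 0.65). Igfbp7 had the narrowest interval, -0.42 to 0.92 around 0.25. Igfbp3 differed by 0.54 (-0.27 to 1.35), Igfbp4 by 0.60 (-0.74 to 1.95) and Igfbp6 by -0.29 (-1.58 to 1.00). The arrays of the genotypes did not overlap for 3 genes, Igfbp2, Igfbp3 and Igfbp7, all higher in Mstn-null MDSC, against 16.6% of all genes higher and 34.8% lower. The margins were small. The lowest Mstn-null and the highest WT array read 2.58 and 2.54 for Igfbp2, 0.686 and 0.681 for Igfbp3, and 1.75 and 1.72 for Igfbp7.

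In WT MDSC, 4 of the 10 genes differed by more than 1 between the isolations, and 3 by more than 2, against 10.6% and 2.62% of all genes tested. WT 1 was above WT 2 by 3.99 for Igfbp5, by 2.87 for Igf1, by 2.87 for Igf2 and by 1.90 for Igfbp2. In Mstn-null MDSC, 4 genes differed by more than 1 and 0 by more than 2, against 6.66% and 1.44% of all genes. Igfbp4 and Igf2 were higher on Mstn-null 1, by 1.42 and 1.01, and Igfbp5 and Igfbp2 on Mstn-null 2, by 1.60 and 1.17. In ESC, Igfbp6 was higher by 1.45 and Igf1 by 1.07 at passage 12 than at passage 15, so 2 of the 10 differed by more than 1 and 0 by more than 2, against 2749 and 768 of the 25057 genes tested. Igfbp6 and Igfbp7 differed least among the MDSC, by at most 0.39 within a genotype.

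**Figure D4:**
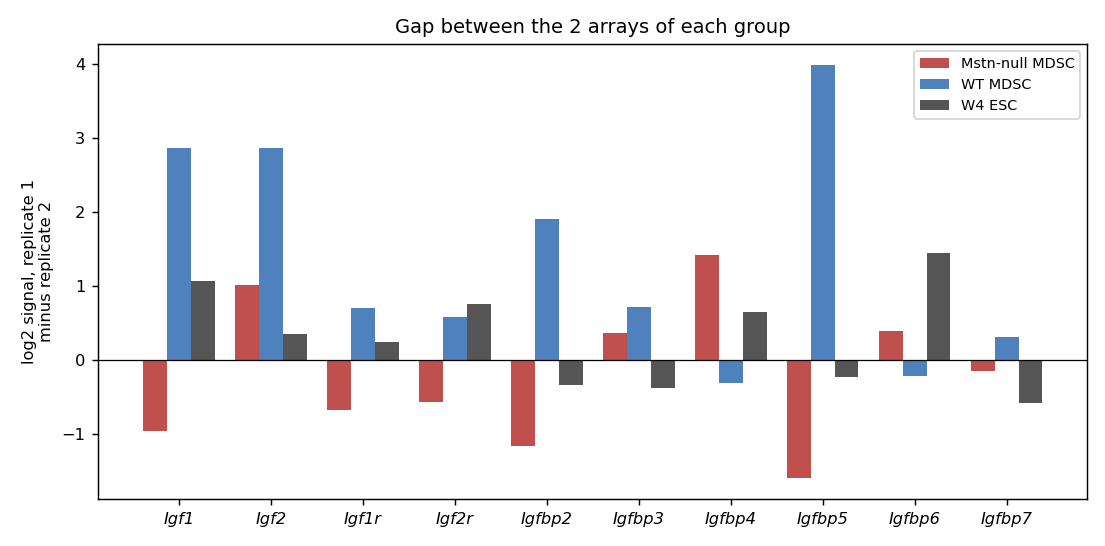
Log2 signal of replicate 1 minus replicate 2 (vertical axis) for each IGF gene (horizontal axis) in Mstn-null MDSC, WT MDSC and W4 ESC; each bar is 1 pair of arrays, with no error. The 3 tallest bars are the WT gaps of Igfbp5, Igf1 and Igf2.

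Markers of several cell types also differed between these arrays. The mean of 12 muscle differentiation markers was 0.11 and -0.25 in Mstn-null MDSC, 3.66 and 0.38 in WT MDSC, and -2.40 and -2.06 in ESC. Their summed signal, in units of the array's 75th percentile, was 39.4 and 32.5 in Mstn-null MDSC, 305.2 and 41.4 in WT MDSC, and 7.05 and 14.9 in ESC. WT 1, the array with the highest Igfbp5 and the highest Igf2 among MDSC, had all 12 well above background, the other MDSC arrays 10 or 11, and the ESC arrays 10 each. Mylpf was not well above background on any of the other 3 MDSC arrays, but was on both ESC arrays. Among those 3, WT 2 had the highest marker mean and the lowest Igfbp5 (-1.18), and Mstn-null 2 the lowest mean and the highest Igfbp5 (1.06). Igf2 was lowest on Mstn-null 2 (-3.28), but higher on Mstn-null 1 (-2.27) than on WT 2 (-2.86). The mean of 9 macrophage and immune markers was 2.63 and 4.35 in Mstn-null MDSC, 1.02 and -0.14 in WT MDSC, and -3.14 and -2.58 in ESC, with all 9 well above background on each MDSC array. Their summed signal was 108.0 and 306.6 in Mstn-null MDSC, 67.7 and 50.5 in WT MDSC, and 17.6 and 11.5 in ESC. Mstn-null 2, with the highest Igf1, was also highest for these markers, and WT 2, with the lowest Igf1, was lowest among the MDSC. Between Mstn-null 1 and WT 1 the order was reversed: Igf1 was 3.00 and 3.60, and the mean of these markers 2.63 and 1.02. Of these 9 markers, 8 were higher in Mstn-null MDSC and 0 passed. An unadjusted limma p under 0.05 was found for 8 of them, against 14.7% of all genes tested. The mean of 10 fibroblast and feeder markers was 6.39 and 6.71 in Mstn-null MDSC, 6.40 and 5.23 in WT MDSC, and 2.64 and 0.38 in ESC. Their summed signal was 1801 and 2297 in Mstn-null MDSC, 1974 and 1095 in WT MDSC, and 171.2 and 100.7 in ESC. These markers were thus lowest among MDSC on WT 2, and higher on ESC 1 than on ESC 2. Of the IGF genes, Igf1, Igf2, Igf1r, Igf2r, Igfbp4 and Igfbp6 were also higher on ESC 1, and Igfbp2, Igfbp3, Igfbp5 and Igfbp7 were lower. The W4 colonies are labelled as free of feeders, while the growth protocol has them on fibroblast feeders that a short plating then removed. The part of muscle differentiation, immune cells and fibroblasts or feeders in the IGF values was not tested.

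**Figure D5:**
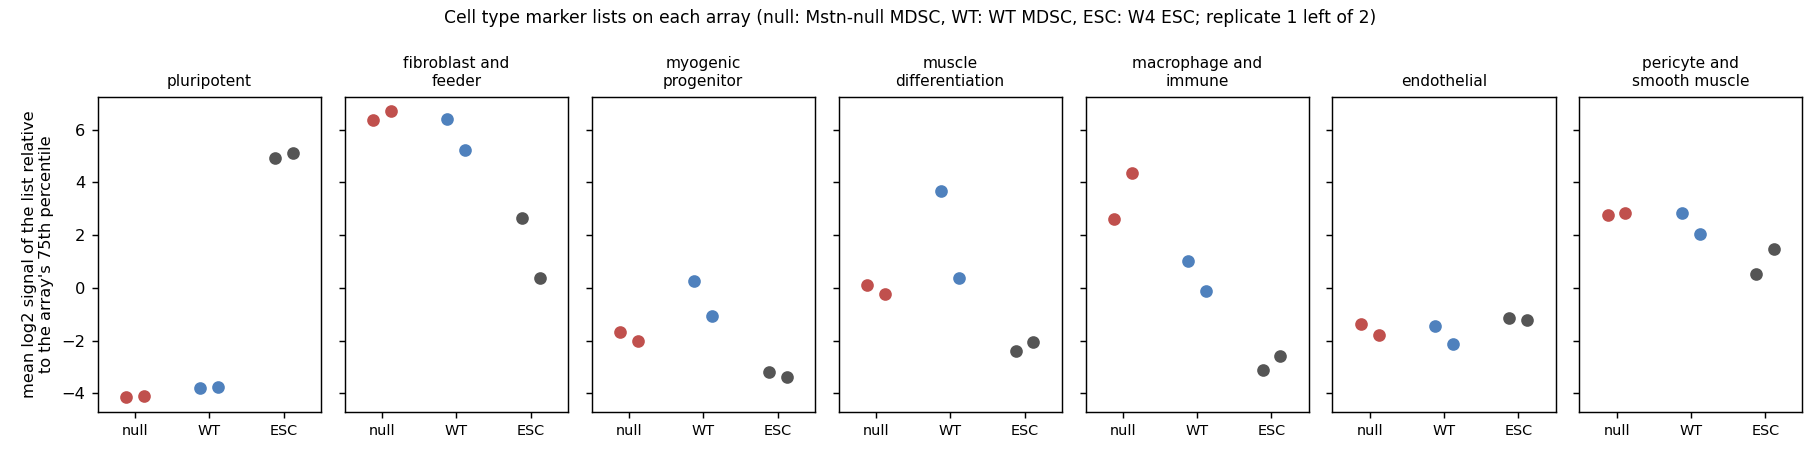
Mean log2 signal relative to the array's 75th percentile (vertical axis) of each cell type marker list on each array (points, replicate 1 left of 2) of Mstn-null MDSC, WT MDSC and W4 ESC. WT 1 stands above the other MDSC arrays for muscle differentiation, and Mstn-null 2 is highest for macrophage and immune markers.

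Of 8 genes that act on the binding proteins or resemble them, 5 rose in MDSC and 1 fell (28.3% and 31.4% of all genes), with a median difference of 3.02 against -0.03 over all genes; Igfbp1 had no clear signal on the 6 arrays and was not tested. Pappa, a protease of Igfbp4 and Igfbp5, read 1.63 and 1.74 in Mstn-null MDSC, 0.61 and -0.52 in WT MDSC, and -2.51 and -2.77 in ESC, and rose by 3.51 ± 0.34 (adjusted p = 0.00133). The related protease Pappa2 was at least 7.22-fold higher, since it was not well above background on either ESC array (adjusted p = 0.00117). The extracellular protease Adamts1 rose by 3.32 (adjusted p = 0.0138) and the protease Htra1 by 2.87 (0.00269). Stc1, a secreted inhibitor of Pappa, had a fitted difference of 3.17 (adjusted p = 0.0152) and was well above background on 1 of the 2 ESC arrays. Its relative Stc2, on the same list, went the other way, at -1.04, which did not pass (adjusted p = 0.0683). Igfbpl1, a protein with a binding protein domain, was the 1 that fell, at least 4.90-fold higher in ESC (adjusted p = 4.59e-04) and well above background on 0 of 4 MDSC arrays. Proteases of the binding proteins and the binding protein Igfbp4 were thus higher in the same cultures. Where a list gives more than its 3 largest changes, the further genes were chosen after their values were seen.

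Of the genes that control IGF expression or lie beside it, 3 of 11 rose and 3 fell, against 28.3% and 31.4% of all genes. Ghr, the growth hormone receptor, rose by 2.35 ± 0.22 (adjusted p = 0.00118), and Stat5a and Stat5b, the transcription factors that it activates and that induce Igf1 in liver, by 2.13 (0.00979) and 1.46 (0.00211). The RNA-binding proteins of the Igf2bp family, named for their binding to Igf2 mRNA, fell. Igf2bp1 read -4.18 and -3.53 in Mstn-null MDSC, -2.45 and -1.65 in WT MDSC, and 4.42 and 4.85 in ESC, a difference of -7.59 (adjusted p = 2.07e-04). Igf2bp3 differed by -2.50 (adjusted p = 0.00628) and Igf2bp2 by -0.69 (0.0403).

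Downstream of the receptors, changes went both ways. Of 10 insulin receptor family members and adaptors, 3 rose and 1 fell, with a median of 0.25. Grb14, an adaptor that inhibits insulin receptor signalling, rose by 4.18 ± 0.25 (adjusted p = 4.17e-04), the receptor substrate Irs1 by 1.96 (0.00898) and the adaptor Shc1 by 0.95 (0.00387), and the docking protein Gab1 fell (-3.99, adjusted p = 4.42e-04). The insulin receptor Insr gave 0.53, which did not pass (adjusted p = 0.0820). Of 22 genes of the PI3K, Akt and mTOR arm, 6 rose and 6 fell, with a median of 0.19. Largest were the kinase Akt1, at 2.17 (adjusted p = 7.89e-04), and the PI3K regulatory subunits Pik3r1, at 2.14 (0.00105), and Pik3r3, at 1.98 (0.00126). The counts of 4 of 10 and 12 of 22 called in these lists stand against 59.6% of all genes. In Mstn-null against WT MDSC, no gene of these lists passed.

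The named genes whose profiles over the 6 arrays lay nearest to each member were found by Euclidean distance, after each gene was centred on its own mean, among 12796 candidates with a symbol and a clear signal on all arrays. With 6 arrays of 3 kinds, this mainly describes the steps between the kinds and the gaps between isolations. Nearest to Igf1 were Fibin (distance 1.19) and Il6 (1.35), nearest to Igf2 were Shisa2 (0.93) and Art5 (1.25), and nearest to Igfbp5 were Isg15 (1.13) and Kcnj15 (1.21). Those 6 share the high WT 1 and lower WT 2 of the members. Nearest to Igfbp6 were Fgf7 (0.62) and Ogn (0.63), to Igfbp7 Lox (0.69) and Lrrc32 (0.80), and to Igfbp4 Smoc2 (0.87) and Efemp2 (0.90). Nearest to Igfbp2 were Mtss1 (0.43) and Syngr1 (0.55), to Igf1r Hivep1 (0.21) and Tep1 (0.30), to Igf2r Tex38 (0.16) and Smox (0.47), and to Igfbp3 Dzank1 (0.12) and Arhgap28 (0.27). Within the system, Igf1r and Igf2r were nearest to each other (0.77), as were Igfbp6 and Igfbp7 (1.64).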

How the data were processed

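Total RNA was labelled with Cy3 and hybridised to 1-colour Agilent arrays, per the labels' protocols. The deposited files, 1 for each array, hold spot intensity values, which the authors made with Agilent Feature Extraction (10.7.1.1 per the file headers, 9.1 per the submitters' processing notes), already background corrected and not scaled between arrays. The deposited intensity was turned into log2 values minus that of the 75th percentile of the non-control spots. Spots with outlier flags (100 to 122 an array) were dropped, and the others averaged for each probe. A single RefSeq symbol (GRCm38.p6) was found for 26413 of 55681 probes, and 23 lacked a value. A probe was well above background on an array where at least 50 percent of its spots were, and a gene was its probe with the highest mean. The 25057 genes tested were so on both arrays of 1 or more groups. The 3 group means were fitted with limma 3.58.1 in R 4.3.3 (lmFit, eBayes, two-sided, 3 residual and 2.02 prior degrees of freedom), adjusted by Benjamini-Hochberg. The steps were tested on simulated data. MDSC is the mean of both genotypes. A bound sets the bright mean against, for each dim array, its lowest signal that is well above background, or the gene's signal where that is higher.

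The members and lists were chosen with earlier results of these data known. Named by rule were the members and their probes, Mstn, up to 3 members of each list with the largest passing difference in MDSC against ESC, the 2 nearest profiles and marker genes. The Ras and MAPK list is not reported here. Groups of 2 are too small for an exact permutation test to reach the threshold. Alternatives were quantile normalization, median centring, normexp (offset 50, on the median signal, since the files hold no spot mean), other filters and probe rules, a variance trend with robust fit, only the groups compared, each array left out, slide 2 alone and a replicate block. Several cannot move a gene's difference: the filters change only the set of genes fitted together, and the probe mean leaves a gene of 1 probe as it was. Slide 2 alone, counted also for MDSC against ESC, sets Mstn-null MDSC against ESC.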

Additional observations from a re-analysis of the deposited data

How the results depend on the processing

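With 2 arrays a group, 1 array can decide a call. Slide 2 holds no WT array, so within it MDSC are Mstn-null MDSC alone. For Mstn-null MDSC against ESC, slide 2 alone and only the groups compared therefore use the same arrays. Igf1, Igfbp4, Igfbp6 and Igfbp7 passed in MDSC against ESC in every alternative run. The count of members lower in MDSC was 2 within slide 2 and 0 to 2 with an array left out; in WT MDSC against ESC it was 0 to 2 with an array left out. In Mstn-null MDSC against ESC it was 2 within slide 2, 2 with only the groups compared and 0 to 2 with an array left out, and the calls over all genes were 3638 to 5608 higher and 4335 to 7304 lower, lowest without Mstn-null 2. In Mstn-null against WT MDSC, the calls over all genes were 10 higher and 12 lower with quantile normalization, 8 and 8 with normexp, and 5 and 3 for every probe on its own, with 0 members among them. The difference of Igfbp3 in MDSC against ESC turned to 0.016 with median centring, and lay between -0.34 and 0.043 with an array left out. Within slide 2 it was 0.12, which is the difference of Mstn-null MDSC from ESC and not that of both genotypes. With an array left out, differences in Mstn-null against WT MDSC also changed sign: they ran from -0.13 to 2.74 for Igf1, -2.79 to 0.077 for Igf2, -0.050 to 0.66 for Igf1r, -0.11 to 1.31 for Igfbp4 and -2.55 to 1.44 for Igfbp5. Igf2 ran from -2.80 to 0.070 in WT MDSC against ESC, and Igfbp3 from -0.067 to 0.31 in Mstn-null MDSC against ESC. Over single genes, 573 values kept direction and side of the threshold, 23 gained and 26 lost a call, and 14 changed sign; no cause was tested.

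Median centring moved the median of all genes by 0.16 in MDSC against ESC, 0.18 in Mstn-null against WT MDSC and 0.25 in Mstn-null MDSC against ESC, where the calls were 6341 higher and 5260 lower, against 5849 and 7725. Quantile normalization moved it by 0.12 in MDSC against ESC and 0.18 in Mstn-null MDSC against ESC, and normexp by 0.14 in the second. With the isolation number as a replicate block, no member passed in Mstn-null against WT MDSC (adjusted p of 0.572 for Igf2 to 0.921 for Igfbp5). The deviations of arrays with the same number had a correlation of -0.397 over 25057 genes, so the numbers are not shown to pair the samples.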
